A study of Mus musculus with 8 samples.

Results

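Claudins are membrane proteins whose extracellular loops meet between neighbouring epithelial cells and form the strands of the tight junction. Members differ in what they let pass: Cldn2 and Cldn15 form channels for small cations and, in the case of Cldn2, water, whereas sealing members such as Cldn1, Cldn3, Cldn4, Cldn8 and Cldn18 tighten the paracellular route. In the gut, a leakier small intestine and a tighter colon are part of the textbook account of sodium recycling, nutrient uptake and salt retention.

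10 claudin genes, chosen by symbol and matched through their Ensembl identifiers, were followed among the 45706 genes of the SI and COL count tables. 2 are pore-forming (Cldn2, Cldn15), 5 are sealing (Cldn1, Cldn3, Cldn4, Cldn8, Cldn18), and 3 have a role that depends on context or is not settled (Cldn7, Cldn12, Cldn23). All 10 were listed in both tables, and 8 passed the filter on low counts; Cldn1 and Cldn18 did not. The libraries came from crypts of untreated wild-type C57BL/6N mice, 2 female and 2 male, whose age was not given in the sources used here. Each mouse gave 1 small intestinal (SI1 to SI4) and 1 colonic (COL1 to COL4) library, with donors labelled 1, 2, 3 and 5 in that order, so n = 4 animals a tissue. Crypts were released with EDTA; the protocol written for the organoid cultures scraped villi from the proximal small intestine and kept colon longer in a stronger EDTA solution. RNA-Seq was run on total RNA from these crypts, and because each library pools many cells, fewer cells of a type and less RNA per cell cannot be told apart.

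Libraries held 15969428 to 32908060 counts, and levels are given as CPM, the usual count scaled to library size, here with TMM factors, with fold changes as SI minus COL on the log2 scale. Mitochondrially encoded genes took 4.83% to 7.35% of counts in 4 libraries (SI1 and SI4, COL3 and COL4), called low-share here, and 22.7% to 50.8% in the other 4. SI1 also stood apart in the summed level of 8 crypt base markers, at 40.0 CPM against 271 to 393 CPM in the other SI libraries. COL libraries summed to 223 to 349 CPM, from a different mix of genes. Olfm4 was called higher in SI (mean 151 against 0.930 CPM) and Slc12a2 higher in COL (207 against 40.9 CPM). The sum of 8 proliferation markers was also lowest in SI1, at 104 CPM against 299 to 498 CPM in the other SI libraries. Not every one was low there, as Mcm2 had 23.6 CPM in SI1 and 19.0 to 25.7 CPM in the others. COL libraries summed to 365 to 634 CPM for this list, and 0 of 8 were called between tissues. All 10 markers of small intestinal villus enterocytes were called higher in SI (edgeR), summing to 44540 to 85860 CPM against 351 to 1152 CPM in COL, with none at 0. Paneth cell markers, of the small intestinal crypt base, summed to 564 to 3965 CPM in SI and 17.9 to 83.0 CPM in COL. Of 6 tested, 5 were called higher in SI. The other, Ang4, averaged 26.6 CPM in SI and 30.9 CPM in COL (adjusted p = 0.836, edgeR). Ang4 held 68.85 of the 83.0 CPM in COL1. Immune markers summed to 47.4 to 118 CPM in SI and 16.3 to 47.4 CPM in COL, with 3 of 7 tested called higher in SI. Goblet cell markers summed to 2866 to 10950 CPM in SI against 12760 to 24150 CPM in COL. Of 7 tested, 3 were called higher in COL, Muc2 (17.1-fold), Agr2 (14.2-fold) and Spink4 (6.92-fold). Not called were Tff3, Fcgbp and Zg16, with log2 fold changes of 0.86, 0.66 and 0.88 towards SI, and Clca1 (-0.79). Of 9 colon surface markers tested, 5 were called higher in COL, among them Car1 (108-fold), and 2 higher in SI, with sums of 6846 to 14020 CPM in SI and 8529 to 43540 CPM in COL. Endothelial markers summed to at most 5.98 CPM in SI against 11.3 CPM in COL, and stromal, muscle and glial markers to at most 11.7 and 13.7 CPM. The part of these markers in the claudin values was not tested.

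The small intestine and colon expressed the pore-forming claudins in opposite directions. Cldn15 was 3.98-fold higher in SI, Cldn2 was 5.01-fold higher in COL, and Cldn7 was 2.5-fold higher in SI, a call that was lost with the donor mouse as a block (adjusted p = 0.0964, edgeR). The sealing gene Cldn8 was counted mainly in COL, with 16 counts over the 4 SI libraries and a fitted 112-fold difference, and it passed the filter on low counts only through COL. Of the 8 members tested, 2 were called higher in SI and 2 higher in COL by edgeR's quasi-likelihood test at an adjusted p of 0.05. The background was 28.4% of 14491 genes called in either direction, 15.5% higher in SI and 12.9% higher in COL, and Cldn8, which had to be high in COL to be tested, is not to be read against it. limma-voom and DESeq2 called the same 4 members, beside 32.4% and 35.3% of all genes. With scaling by library size alone 2 members were called, both higher in COL, beside 40.7% of all genes. Of all calls with that scaling 18.9% were higher in SI, against 54.7% with TMM. The median log2 fold change was -0.085 over the 8 members and -0.089 over all genes tested. The remaining members tested, Cldn3, Cldn4, Cldn12 and Cldn23, had adjusted p-values of 0.192 to 0.942.

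**Figure D1:**
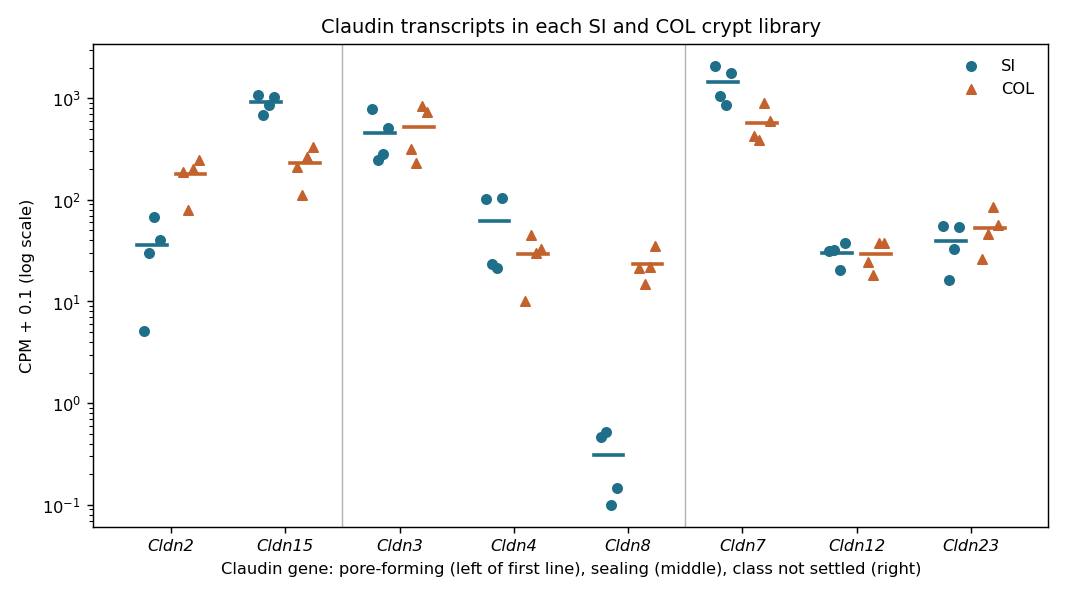
CPM + 0.1 of the 8 claudins tested in each library, on a log axis, with SI libraries as circles, COL libraries as triangles and group means as lines. Cldn15 lies higher in all 4 SI libraries, Cldn2 and Cldn8 lie higher in all 4 COL libraries, and the other 5 genes overlap between tissues.

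Promoters are shown for the called members that have an entry in RefSeq on GRCm38.p6, so that the start regions of the 2 pore-forming genes that moved apart and of Cldn7 can be set side by side. Each run is the 250 bases before a transcription start in RefSeq (for Cldn7 the first of 2), 5′ to 3′ on the gene's strand, and capitals mark matches to 1 of 8 short motifs searched on both strands. The windows are chrX:139800558-139800807 (+) for Cldn2, chr5:136967619-136967868 (+) for Cldn15 and chr11:69964529-69964778 (+) for Cldn7. The RefSeq start of Cldn15 lies inside the gene interval of the GENCODE annotation, downstream of its first base, so this window is not upstream of that base.
Cldn2: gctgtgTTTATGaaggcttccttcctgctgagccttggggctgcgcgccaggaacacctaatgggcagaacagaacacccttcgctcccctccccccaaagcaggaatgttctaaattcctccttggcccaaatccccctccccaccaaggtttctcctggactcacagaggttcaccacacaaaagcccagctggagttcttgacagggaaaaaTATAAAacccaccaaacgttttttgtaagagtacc
Cldn15: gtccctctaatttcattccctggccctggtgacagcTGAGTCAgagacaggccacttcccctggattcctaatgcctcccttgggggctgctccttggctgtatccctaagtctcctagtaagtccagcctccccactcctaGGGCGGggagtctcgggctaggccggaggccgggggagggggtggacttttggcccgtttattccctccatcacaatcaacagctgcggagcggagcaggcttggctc
Cldn7: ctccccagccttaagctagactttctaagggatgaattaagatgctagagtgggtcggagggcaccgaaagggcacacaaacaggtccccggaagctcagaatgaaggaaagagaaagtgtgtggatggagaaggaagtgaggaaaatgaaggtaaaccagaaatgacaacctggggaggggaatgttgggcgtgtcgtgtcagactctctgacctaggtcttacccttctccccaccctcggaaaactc
The Cldn2 window held TTTATG, the letters used for Cdx factors, 244 bases before the start and a TATA box (TATAAA) 35 bases before it. TTTATG was present in 10.8% and TATAAA in 12.4% of 32851 promoter windows of this length. The Cldn15 window held TGANTCA, the AP-1 letters, 214 bases before the start and GGGCGG, used for Klf and Sp factors, at 108 bases, against 6.75% and 32.7% of all windows. Neither Cldn2 motif was in the Cldn15 window. None of the 8 letter strings was in the Cldn7 window shown, and a second RefSeq start of Cldn7, with the window chr11:69965171-69965420, had GGGCGG on the opposite strand 6 bases before it. The other strings searched were CTTTGA (Tcf/Lef, 13.8% of windows), GTTAAT (Hnf1, 6.43%), CAAAGT (an Hnf4 partial site, 12.6%), which can overlap the complement of CTTTGA, and the letters for GATA factors, AGATAA (9.99%). RefSeq entries were found for 8 of the 10 members, and a match here describes letters only.

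Cldn2 (ENSMUSG00000047230, chrX:139800828-139811386, + strand) encodes the cation and water channel of leaky epithelia. Its level was 5.03, 30.0, 68.1 and 40.2 CPM in SI1 to SI4 and 188, 79.2, 202 and 248 CPM in COL1 to COL4. The lowest COL library lay above the highest SI library, so the groups did not overlap. Group means were 35.8 ± 26.1 CPM in SI against 179 ± 71.4 CPM in COL (SD, n = 4), a log2 fold change of -2.32 (SE 0.633, adjusted p = 0.0174, edgeR). All 4 mice had the higher value in COL, by -1.40 to -5.20 on the log2 scale. The most extreme mouse was the donor of SI1, the library with the lowest crypt base and proliferation sums. Without SI1 the fold change was -1.95 (adjusted p = 0.0127, edgeR). In a fit of only the 4 libraries of low mitochondrial share, SI1 among them, the fold change was -3.31 (adjusted p = 0.0458, edgeR). In the 4 of high share it was -1.52 and missed the threshold (adjusted p = 0.124, edgeR). These fits called 37% and 14.8% of genes.

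Cldn15 (ENSMUSG00000001739, chr5:136966616-136975858, + strand), the sodium channel claudin of the small intestine, was among the abundant members in both tissues. It was measured at 1080, 685, 850 and 1023 CPM in SI1 to SI4 and at 209, 112, 262 and 332 CPM in COL1 to COL4. Even the lowest SI value was above every COL value. Means were 909.5 ± 179 and 229 ± 92.8 CPM (SD, n = 4), giving a log2 fold change of 1.99 (SE 0.408, adjusted p = 0.00367, edgeR), with 1.63 to 2.62 within the 4 mice. With scaling by library size alone, which moved the median of all genes from -0.089 to -0.82, the Cldn15 value was 1.18 and lost its call (adjusted p = 0.0574, edgeR). Relative to that median it was 2.08 with TMM and 2.00 with library size.

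The make-up of the pore-forming pair also differed between SI and COL libraries. Per kilobase of exon, Cldn15 exceeded Cldn2 by 336-, 35.7-, 19.5- and 39.9-fold in SI1 to SI4, and by 1.74-, 2.20-, 2.03- and 2.10-fold in COL1 to COL4. Cldn2 made up 0.297% to 4.87% of pore-forming transcripts in SI and 31.2% to 36.5% in COL. The COL libraries lay close to each other in this ratio, while the SI libraries were spread widely, with SI1 at the far end.

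**Figure D2:**
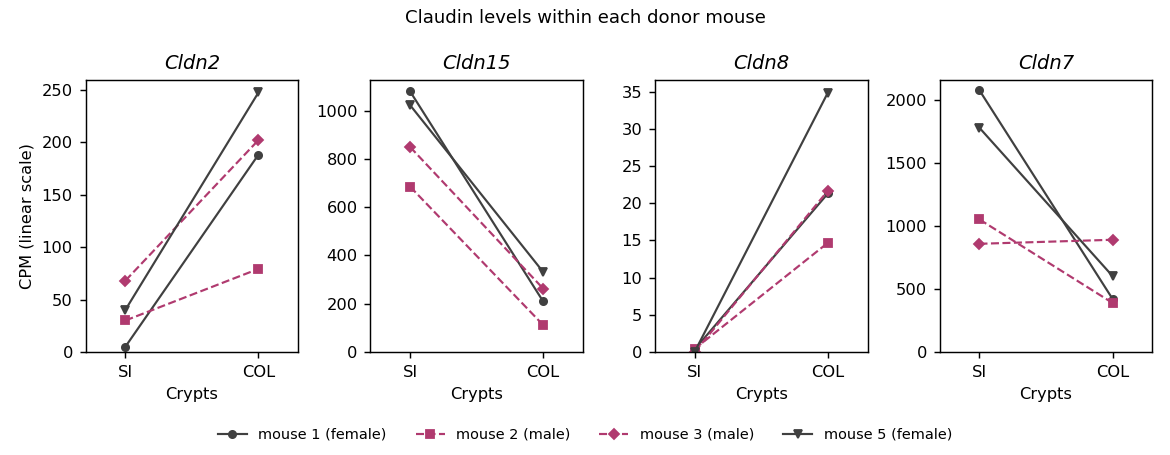
CPM of the 4 called claudins in SI and COL of each donor mouse, on linear axes, 1 line per mouse with solid lines for females and dashed lines for males. Cldn2 and Cldn8 rise towards COL and Cldn15 falls in all 4 mice, and Cldn7 falls in 3 of 4 mice.

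Among the sealing members, Cldn8 (ENSMUSG00000050520, chr16:88560828-88563183, - strand), a barrier claudin of the distal colon and distal nephron, was near absent from SI. It had 8, 7, 0 and 1 counts in SI1 to SI4 and 726, 236, 810 and 1664 counts in COL1 to COL4. In CPM these are 0.362, 0.423, 0 and 0.0458 against 21.3, 14.7, 21.7 and 34.8, so SI3 and SI4 were under the level that 3 counts give and the groups were far apart. The log2 fold change was -6.80 (SE 0.732, adjusted p = 5.74e-05, edgeR), and values within mice ran from -4.82 to -7.91. Cldn8 passed the filter only through its COL libraries, so some difference was built into its being tested.

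Of the 7 other members tested, Cldn15 (higher in SI) and Cldn2 (higher in COL) did not overlap between tissues, beside 33.5% of all genes tested (17.8% higher in SI and 15.7% higher in COL).

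Cldn3 (ENSMUSG00000070473, chr5:134986214-134987472, + strand), a broadly expressed barrier claudin, carried most of the sealing transcripts, 87.7% to 95.0% of them in SI and 85.4% to 96.3% in COL, per kilobase. Its level was 779, 247, 280 and 512 CPM in SI1 to SI4 and 315, 228, 830 and 724 CPM in COL1 to COL4. The tissues overlapped almost fully, and the high values belonged to the 4 libraries of low mitochondrial share. The log2 fold change was -0.21 (SE 0.518, adjusted p = 0.804, edgeR). A stretch of 40 exon bases, 3.18% of the gene, overlaps Wbscr25 on the opposite strand, and whether counting used strand is not given in the sources used here.

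Cldn4 (ENSMUSG00000047501, chr5:134945119-134946934, - strand), a barrier claudin that lies 39280 bases from Cldn3, split the SI libraries. It reached 101 and 104 CPM in SI1 and SI4 but 23.3 and 21.4 CPM in SI2 and SI3, against 9.95, 44.9, 29.8 and 32.5 CPM in COL1 to COL4. Both high SI libraries came from females and had a low mitochondrial share, so sex and that share cannot be told apart in SI. Over all libraries the log2 fold change was 1.09 (SE 0.586, adjusted p = 0.192, edgeR). It was 1.71 in the 4 libraries of low mitochondrial share (adjusted p = 0.00223, edgeR) and -0.34 in the 4 of high share (adjusted p = 0.777, edgeR). Both SI libraries were female in the low-share fit and male in the high-share fit, while COL held both sexes in each. The tissue difference was lower in males than in females by a log2 difference of -3.01 (SE 0.753), and this interaction did not pass (adjusted p = 0.909, edgeR).

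Cldn1 (ENSMUSG00000022512, chr16:26356642-26371841, - strand), the barrier claudin of skin, had 0, 1, 3 and 0 counts in SI1 to SI4 and 0, 0, 4 and 4 counts in COL1 to COL4. Cldn18 (ENSMUSG00000032473, chr9:99689461-99717267, - strand), the stomach and lung claudin, had 1 count in SI1 and 0 in every other library. A count of 3 corresponds to 0.0628 to 0.186 CPM in these libraries, so Cldn18 was under that level throughout and no tissue difference could be detected at this depth for either gene. These limits cover counting error only.

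Cldn7 (ENSMUSG00000018569, chr11:69964779-69967885, + strand), which binds Epcam and sits also along the lateral membrane, was the most abundant claudin of SI. It was measured at 2073, 1050, 857 and 1776 CPM in SI1 to SI4 and at 421, 389, 889 and 602 CPM in COL1 to COL4. SI3 fell below COL3, so the ranges overlapped, and SI was higher in 3 of 4 mice. Means of 1439 ± 579 and 575 ± 229 CPM (SD, n = 4) gave a log2 fold change of 1.32 (SE 0.452, adjusted p = 0.0481, edgeR). The call was held in 2 of 8 fits that left out 1 library, without SI3 or without COL3, and was lost in the other 6. Blocking on the mouse left the fold change at 1.33, and the call was lost with edgeR (adjusted p = 0.0964) but not with limma-voom (1.31, adjusted p = 0.0434). It was also lost with scaling by library size, where the fold change was 0.55 (adjusted p = 0.368, edgeR). Relative to the median of all genes, Cldn7 was 1.41 with TMM and 1.37 with library size.

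Cldn12 (ENSMUSG00000046798, chr5:5489537-5514958, - strand), linked to calcium passage, ran from 20.2 to 37.1 CPM in SI and from 18.1 to 37.7 CPM in COL. Its log2 fold change was 0.04 (SE 0.306, adjusted p = 0.942, edgeR), but -0.75 with library-size scaling and 0.074 relative to that scaling's median. Cldn23 (ENSMUSG00000055976, chr8:35824712-35826559, - strand), found in differentiated gut epithelium, ran from 16.2 to 54.9 CPM in SI and from 25.9 to 84.0 CPM in COL. Its log2 fold change was -0.42 (SE 0.430, adjusted p = 0.501, edgeR). Neither gene separated the tissues.

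**Figure D3:**
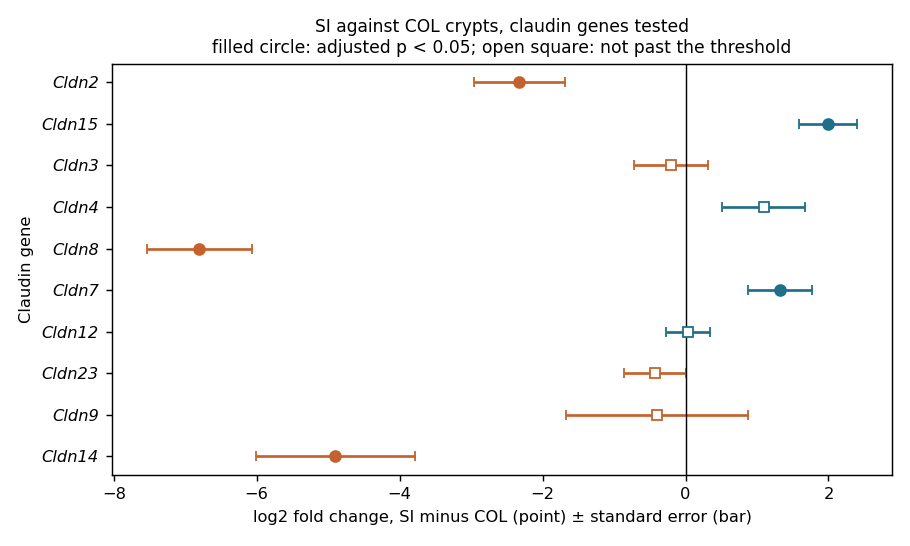
Log2 fold change of SI minus COL with its standard error for the 8 members tested and for Cldn9 and Cldn14, the other claudin genes that passed the filter. Filled circles passed an adjusted p of 0.05 (edgeR); values run from -6.80 for Cldn8 to 1.99 for Cldn15.

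Levels of different claudins were compared per kilobase of exon. In SI the order was Cldn7 (739 ± 297 CPM per kilobase, SD, n = 4), Cldn15 (428 ± 84.2) and Cldn3 (361 ± 196), whose ranges overlapped from each to the next. A gap in range followed before Cldn4, Cldn23, Cldn2 and Cldn12, with means of 34.3 down to 7.13, and another before Cldn8 at 0.088. In COL Cldn3 led (416 ± 236), overlapping with Cldn7 (295 ± 118), and a gap separated both from Cldn15 (108 ± 43.7). Cldn2 (53.9 ± 21.5), Cldn23, Cldn4, Cldn8 and Cldn12 followed with no gap between neighbours. Cldn3, Cldn7 and Cldn15 together made up 94.4% to 96.5% of the summed claudin level in SI and 83.8% to 89.8% in COL.

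The question of pore-forming against sealing members was addressed by the ratio of their summed levels per kilobase, which is described without a test because the members were chosen. The ratio was 0.756, 1.58, 1.80 and 1.06 in SI1 to SI4 and 0.587, 0.359, 0.269 and 0.379 in COL1 to COL4. SI was higher in each mouse, and the lowest SI value exceeded the highest COL value. The closest pair was that of SI1, of low mitochondrial share, and COL1, of high share. Both low-share SI libraries, SI1 and SI4, had lower ratios than SI2 and SI3, and the part of the share in the ratio was not tested. On the log2 scale the means were 0.30 ± 0.57 and -1.38 ± 0.46 (SD, n = 4), a difference of 1.68. The pore-forming sum was 332 to 510 CPM per kilobase in SI and 76.3 to 231 in COL, whereas the sealing sum overlapped, at 210 to 675 and 212 to 685. Cldn15 carried most of the pore-forming sum and Cldn3 most of the sealing sum in every library. With Cldn7 counted as sealing, the difference was 0.89. Cldn7 stood at 1064 CPM per kilobase in SI1 and 216 in COL1. With Cldn7 in the sealing sum, the SI1 ratio fell below that of COL1. The tissues then overlapped, and the order turned in the mouse that gave SI1 and COL1.

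Mitochondrial share moved with claudin levels within each tissue. In SI the low-share libraries were those of the females and the high-share ones those of the males, so share and sex cannot be told apart there. In SI, both libraries of low share lay above both of high share for 5 of 8 members (Cldn3, Cldn4, Cldn7, Cldn15, Cldn23), beside 25.4% of all genes. In COL this held for 7 of 8, all but Cldn4, beside 34.6% of all genes. Low-share libraries exceeded high-share ones by 1.26 in SI and 1.53 in COL for Cldn3, on the log2 scale, and by 1.02 and 0.85 for Cldn7. Cldn2 went opposite ways, at -1.66 in SI and 0.87 in COL. With the share as a covariate the same 4 members were called, beside 37.7% of all genes. Cldn15 and Cldn8 were called within the low-share and within the high-share libraries. The tissue by sex interaction passed the adjusted threshold for no member and for 0 of 14491 genes with edgeR, limma-voom or library-size scaling. An unadjusted p under 0.05 was found for 5.25%, 5.56% and 6.39% of genes, and the members among them with edgeR were Cldn4 and Cldn23, each at an adjusted p of 0.909.

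Of 23 other claudin genes looked for, 21 were in the tables and 2 passed the filter. Cldn14, a cation-restricting claudin known from the inner ear and kidney, had 3, 1, 0 and 0 counts in SI1 to SI4 and 11, 36, 97 and 63 counts in COL1 to COL4. Like Cldn8, it was counted mainly in COL and passed the filter only there, with a log2 fold change of -4.90 (SE 1.11, adjusted p = 0.00561, edgeR). With 4 counts in SI in all, this value moved to -6.17 without SI1 (adjusted p = 0.00639, edgeR), and the call was lost within the high-share libraries (adjusted p = 0.1, edgeR). Cldn9 had 0, 14, 11 and 0 counts in SI and 4, 1, 36 and 30 in COL, which overlapped (log2 fold change -0.40, SE 1.27, adjusted p = 0.842, edgeR). The other 19 had at most 11 counts in a library, and 5 of them were at 0 throughout.

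The proteins that claudins work with were read from a list of 26 tight junction genes, of which 25 were tested, 6 were called higher in SI and 2 higher in COL, with a median log2 fold change of 0.49. Over all genes, 15.5% and 12.9% were called in these directions, and the median was -0.089. With library-size scaling 3 of the list were called higher in SI and 4 higher in COL, beside 1115 and 4788 of all 14491 genes. Ildr1, an angulin of tricellular contacts, averaged 2.17 ± 0.641 CPM in SI against 115 ± 38.0 CPM in COL (SD, n = 4), 52.8-fold higher in COL (adjusted p = 7.38e-06, edgeR). Cgnl1, the adaptor paracingulin, averaged 1.49 ± 1.64 and 37.9 ± 18.3 CPM, 25.9-fold higher in COL (adjusted p = 0.00233, edgeR). The direction of these 2 genes was that of Cldn2 and Cldn8. Higher in SI, as Cldn15 was, were the polarity genes Mpp5 (log2 fold change 1.72), Patj (1.60) and Pard6b (1.72), and Amotl2 (1.92), which binds the polarity scaffold. Ocln, the tight junction protein occludin (1.43, adjusted p = 0.0401, edgeR), and Igsf5, a junctional adhesion molecule (1.12, adjusted p = 0.0233, edgeR), were also called, but in 3 and 5 of 8 fits that left out 1 library. With library-size scaling, which lowered the median of all genes to -0.82, Ocln, Igsf5 and Pard6b had log2 fold changes of 0.64, 0.34 and 0.94 and lost their calls, with adjusted p of 0.300, 0.446 and 0.076 (edgeR).

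**Figure D4:**
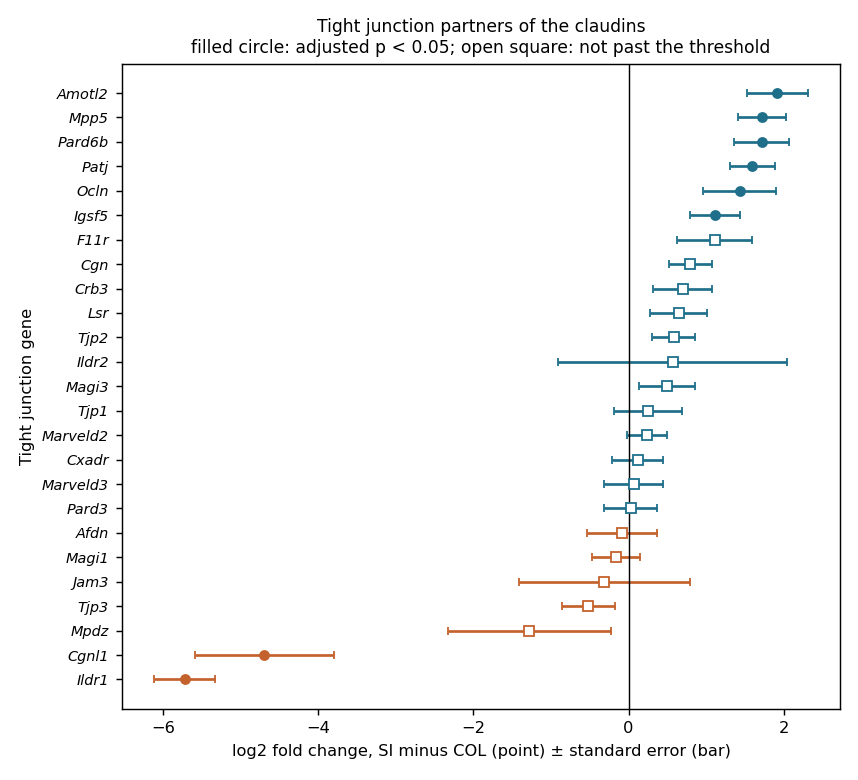
Log2 fold change of SI minus COL with its standard error for the 25 tight junction partner genes tested, sorted by value. Filled circles passed an adjusted p of 0.05 (edgeR): 6 lie on the SI side and 2, Ildr1 and Cgnl1, lie far on the COL side.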

How the data were processed

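RNA-Seq of 8 crypt libraries (4 SI, 4 COL; 1 of each from 4 mice) was analysed. The authors trimmed paired-end HiSeq4000 reads with Trimmomatic 0.36, aligned them to mm10 with STAR 2.5.2b and deposited its raw counts per gene; the annotation release and strand setting are not given in the sources used here. Library totals ran from 15969428 to 32908060. Ensembl identifiers were named with GENCODE vM21 on GRCm38, the mm10 assembly (563 identifiers had no match), and exon lengths were taken from it. Counts were filtered with filterByExpr (10 counts, 15 in total), scaled by TMM and tested with edgeR 4.0.16 (quasi-likelihood, Benjamini-Hochberg over 14491 genes, threshold 0.05) in R 4.3.3, checked on simulated counts. The study used limma; here it was an alternative (limma 3.58.1), with DESeq2 1.42.0, library-size scaling, no filter, 10 counts in every library, each library left out, mitochondrial share as covariate and the donor mouse as block. Fits within the low-share or high-share libraries (cut at 15%) were added after seeing the data. In each of them the SI libraries were of a single sex, while COL held both sexes. SI and COL libraries with the same number came from the same animal; correlations of their deviations were -0.24, 0.39, -0.079 and 0.33. Differences within a mouse and between libraries of low and high share use log2(CPM + 0.1). Members, classes and lists were chosen with earlier results of these data known. All 10 members were named, and of the other lists the genes tested (claudins) or called (tight junction and claudin handling), and the 3 genes outside the family with the highest correlation of log2 CPM to Cldn2, Cldn4, Cldn8 and Cldn15 among those with a mean of at least 3. No stretch of 50 bases was shared between a member and another gene.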

Additional observations from a re-analysis of the deposited data

How the results depend on the processing

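The calls of Cldn8 and Cldn15 held in all 8 fits that left out 1 library, as did that of Cldn2, with log2 fold changes of -7.31 to -6.38, 1.79 to 2.23 and -2.82 to -1.95. In these fits 3167 to 4480 genes (20.7% to 29.6% of those tested), 3 to 4 claudins and 6 to 11 tight junction partners were called. With 1 library left out, the balance of pore-forming to sealing levels differed by 1.50 to 1.92 (log2). With the donor mouse as a replicate block 4072 genes were called, 3743 of them shared, and Cldn7 was the claudin lost (adjusted p = 0.0964, edgeR). With library-size scaling 2 claudins were called, Cldn2 and Cldn8, beside 40.7% of all genes. Of the 5903 calls with that scaling 18.9% were higher in SI, against 54.7% of 4116 with TMM. Within the high-share libraries 2264 of 15324 genes (14.8%) and 2 claudins (Cldn8, Cldn15) were called. Within the low-share libraries 5530 of 14955 genes (37%) and 5 claudins were called, Cldn4 added. Both are fits with fewer libraries. With the mitochondrial share as covariate 13 tight junction partners were called, beside 5457 of all 14491 genes (37.7%, against 28.4% in the main fit). The cause was not tested. Without a filter Cldn4 was called (adjusted p = 0.0247, edgeR) and Cldn7 was not (0.115); with 10 counts in every library Cldn8 could not be tested. With Cldn7 counted as sealing, the balance differed by 0.89, and SI1 fell below COL1. Signs turned for Cldn12 (-0.75 with library-size scaling, -0.028 with no filter, -0.067 with the strict filter, -0.044 with the covariate, -0.15 in low-share libraries, -0.11 to 0.20 leaving out 1 library), where -0.75 is 0.074 relative to the median of all genes under that scaling. Signs also turned for Cldn3 (-0.58 to 0.11) and Cldn9 (-1.29 to 0.28) leaving out 1 library, Cldn4 in high-share libraries (-0.34) and within single mice for Cldn7 (-0.052), Cldn3 (1.31 and 0.12), Cldn4 (-0.94 and -0.47), Cldn12 (-0.89 and -0.014) and Cldn23 (1.08); apart from the library-size value, the cause was not tested. Depth limits Cldn1, Cldn18 and the SI values of Cldn8, where 3 counts correspond to 0.0628 to 0.186 CPM.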

Other observations

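Genes that act on claudins were read from a list of 8, of which 7 were tested, 1 was called higher in SI and 2 higher in COL, with a median log2 fold change of -0.25. Of all genes tested, 15.5% and 12.9% were called in these directions. Prss8, the membrane serine protease prostasin, averaged 18.3 ± 9.19 CPM in SI against 67.6 ± 33.0 CPM in COL (SD, n = 4), 3.69-fold higher in COL (adjusted p = 0.0109, edgeR). Wnk4, a kinase known to phosphorylate claudins and to regulate salt transport, averaged 7.83 ± 6.83 and 40.2 ± 16.5 CPM, 5.14-fold higher in COL (adjusted p = 0.0154, edgeR). Spint1, an inhibitor of membrane serine proteases, averaged 180.4 ± 9.17 and 87.3 ± 25.6 CPM, 2.07-fold higher in SI (adjusted p = 0.0164, edgeR). It was called in 6 of 8 fits that left out 1 library. The call was lost with library-size scaling (log2 fold change 0.35, adjusted p = 0.308, edgeR), which lowered the median of all genes to -0.82. Epcam, the partner of Cldn7, had a log2 fold change of 0.49 and did not pass (adjusted p = 0.312, edgeR).

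The genes whose log2 CPM followed a claudin most closely over the 8 libraries are given as a description, since the 8 points share tissue, depth and mitochondrial share. For Cldn15 they were Tmed4 (Pearson r = 0.998), Yod1 (0.997) and 1600014C10Rik (0.997). Cldn8 was closest to B3galt5 (0.992), a galactosyltransferase, which averaged 1.81 CPM in SI against 256 CPM in COL, and then to Rita1 (0.991) and Stk38l (0.990). Cldn2 was followed by Cks2 (0.993), a cyclin-dependent kinase subunit, Agpat5 (0.992) and Rpl27a (0.990), and Cldn4, which did not separate the tissues, by Arel1 (0.984), Ambra1 (0.975) and Myo1e (0.966).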
